A study of Mus musculus with 23 samples.

Results

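The genes described here are 35 transcripts of core and naive pluripotency, the state in which mouse embryonic stem cells (ESCs) can form every embryonic lineage. They were chosen by name from a list without the KLF factors, and each of the 35 matched exactly 1 of the 55573 genes counted. RNA was measured as 3′ tags, one read near the polyadenylated end of a transcript, in SET knockout (KO) and wild-type (WT) R1 mouse ESCs and in KH2 mouse ESCs. SET is a histone chaperone and an inhibitor of the phosphatase PP2A. All cells were grown on mouse embryonic fibroblasts with serum and leukaemia inhibitory factor (LIF).

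The R1 cells came in 2 separately titled sets. Each set held 4 KO samples, 2 each of lines KO1 and KO2, and 2 WT samples. In set 2, 2 further KO samples and 1 WT sample had received retinoic acid (RA) for 4 d, a signal that drives ESCs to differentiate, and both of these KO samples carry the title KO1. The name of the table deposited for one of them, 2i, has the number of KO2 instead, so its line is uncertain. KH2 cells carry HA-tagged SETa under doxycycline control and were sampled with 1 µg/mL doxycycline (Dox) for 24 h and without it, 2 samples each. Whether KO1 and KO2 are the same clones in both sets, and how the gene was edited, was not stated in the labels. No label says that replicates came from separate cultures, so a p-value compares a difference with the spread among samples that may be technical repeats.

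Values are CPM, read counts relative to the sample's total, scaled with TMM factors over all 19 samples, and a fold change is the log2 ratio fitted by edgeR. A gene was called at a Benjamini-Hochberg adjusted p below 0.05 over all genes tested. The shallowest samples were those of set 1, with totals of 806412 to 1445013 counts. Untreated samples of set 2 had 2833064 to 10217040 counts, RA samples 3904924 to 5047363, and KH2 samples 4848478 to 6472695. Before scaling, a floor of 3 counts was worth 2.08 to 3.72 CPM in set 1 samples and 0.294 to 1.06 CPM in all others. Set itself averaged 21.0 ± 3.64 CPM in KO (SD, n = 4) and 961 ± 25.3 CPM in WT (SD, n = 2) of set 1, and 437 ± 132 CPM in KO and 1326 ± 180.5 CPM in WT of set 2. After RA it was at 288 and 194 CPM in KO and 579.9 CPM in WT. Of the transcripts that define ESCs, Nanog, Zfp42 and Esrrb were at 67.9 CPM or more in every untreated sample. Pou5f1 was not, as described below.

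In ESCs the factors encoded by Pou5f1 (OCT4), Sox2 and Nanog bind together at enhancers and sustain one another's expression. Around them lies the naive network, including Esrrb, Tfcp2l1, Tbx3, Nr5a2, Gbx2 and Prdm14, which LIF signalling helps to maintain and which is taken down early as cells leave the naive state. Genes such as Zfp42, Utf1, Tdh and the Dppa genes are widely used markers of the undifferentiated state.

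RefSeq promoters (GRCm38.p6, 250 bases before to 50 after a transcription start) were found for 21 of the 35 genes, as 29 promoters. They were searched on both strands for 3 motifs, the octamer TTTGCAT bound by OCT4, the SOX motif CATTGT and the ESRR half-site AAGGTCA, whose letters do not overlap one another. The octamer stood in 5 of the 29 promoters (17.2%) and in 4.63% of all 32851 promoters. The SOX motif stood in 5 of 29 (17.2%) and in 12.6% of all, and AAGGTCA in 0 of 29 and in 4.72% of all. Some of the 29 are alternative starts of 1 gene, and 2 overlapping Nanog promoters hold the same octamer and SOX motif, so each is counted for both. By gene, the octamer stood in Nanog, Sox2, Spp1 and Zfp42, and the SOX motif in Eras, Esrrb, Nanog and Pou5f1. A match is a description of these letters only. The promoters of 4 genes are shown because their genes carry the results. Nanog (chr6:122707239-122707538, plus strand) holds an octamer whose first base lies 75 bases before the start, and a SOX motif on the other strand whose first base lies 67 before it. Zfp42 (chr8:43306960-43307259, minus strand), lower in KO, holds an octamer that begins 185 bases before the start. It was also called higher with Dox, a call lost in 5 of 8 alternative runs. Gbx2 (chr1:89931127-89931426, minus strand) and Nr0b1 (chrX:86191525-86191824, plus strand), the pair with the lowest fold changes in KO, hold none of the 3 motifs in this window. Capitals mark the motifs.
Nanog: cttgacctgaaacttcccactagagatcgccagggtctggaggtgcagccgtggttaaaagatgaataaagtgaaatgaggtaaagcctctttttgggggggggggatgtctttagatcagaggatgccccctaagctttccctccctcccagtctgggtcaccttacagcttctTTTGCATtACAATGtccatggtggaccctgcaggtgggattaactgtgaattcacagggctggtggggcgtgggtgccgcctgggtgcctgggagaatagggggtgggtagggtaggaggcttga
Zfp42: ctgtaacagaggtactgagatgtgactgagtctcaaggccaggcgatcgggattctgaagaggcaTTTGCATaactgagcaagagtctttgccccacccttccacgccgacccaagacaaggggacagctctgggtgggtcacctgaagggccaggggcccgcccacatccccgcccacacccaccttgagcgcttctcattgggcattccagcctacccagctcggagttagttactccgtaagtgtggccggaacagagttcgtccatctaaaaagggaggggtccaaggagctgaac
Gbx2: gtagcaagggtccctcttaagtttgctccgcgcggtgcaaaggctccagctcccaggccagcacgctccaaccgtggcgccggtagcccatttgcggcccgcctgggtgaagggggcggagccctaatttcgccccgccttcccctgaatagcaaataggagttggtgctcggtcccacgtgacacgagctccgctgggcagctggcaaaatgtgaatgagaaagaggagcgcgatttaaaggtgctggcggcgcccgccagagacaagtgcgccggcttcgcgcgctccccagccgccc
Nr0b1: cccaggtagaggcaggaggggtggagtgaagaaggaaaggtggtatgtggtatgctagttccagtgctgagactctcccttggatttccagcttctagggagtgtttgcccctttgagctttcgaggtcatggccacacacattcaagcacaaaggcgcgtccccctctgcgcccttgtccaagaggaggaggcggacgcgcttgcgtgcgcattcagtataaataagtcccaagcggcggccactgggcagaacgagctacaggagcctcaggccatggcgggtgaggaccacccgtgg

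In untreated ESCs the pluripotency genes were lower in KO than in WT. Over both sets, 23 of 35 were called lower and none higher, whereas 8.63% of all 11515 genes tested were called lower and 10.4% higher. Their median log2 fold change was -0.67, against -0.02 over all genes. None was higher at an unadjusted p under 0.05 either, and DESeq2 called 24 lower and 0 higher. Of the 23, 8 had a log2 fold change of -1 or less: Gbx2, Nr0b1, Esrrb, Prdm14, Sall1, Eras, Spp1 and Tcl1. By role, 2 of 3 core factors fell, 9 of 12 naive network factors, 8 of 9 ESC-restricted proteins and enzymes, 2 of 4 secreted and surface proteins, 1 of 4 chromatin and repressor proteins and 1 of 3 MYC and MYB factors. These roles were assigned with results known. Of the 23 calls, 16 were kept under every alternative run. Among single samples, leaving out WT 1b ended the call of Tdh (edgeR adjusted p = 0.0876), and leaving out WT 2a that of Dppa4 (0.0561). In bulk RNA, fewer pluripotent cells and less RNA per cell cannot be told apart.

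**Figure D1:**
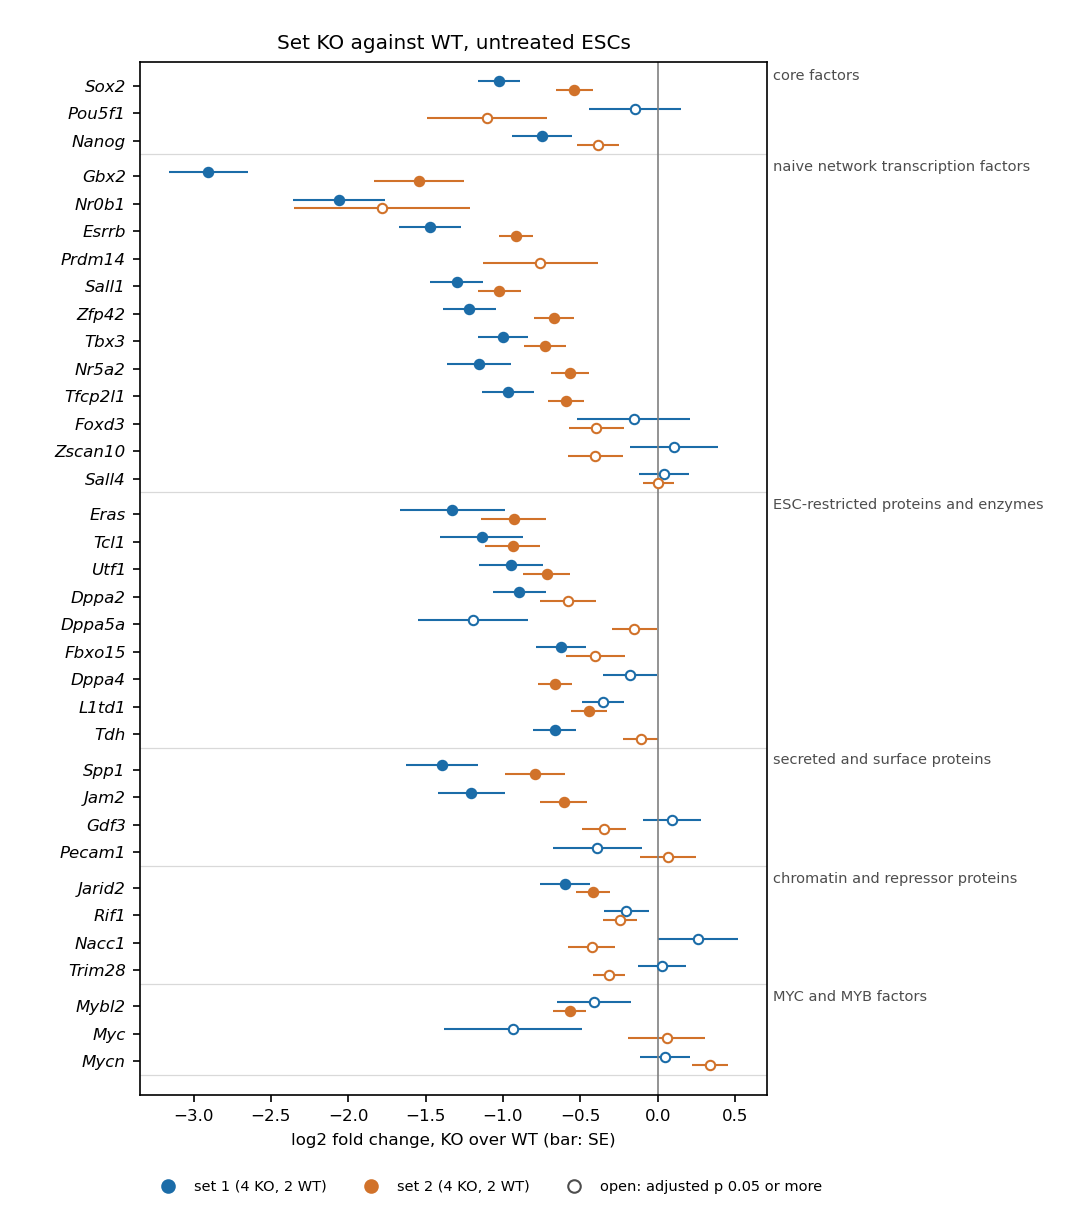
Log2 fold changes of KO over WT for the 35 genes, grouped by role, in set 1 (blue) and set 2 (orange), with bars for the standard error; filled points passed an adjusted p of 0.05. Gbx2 and Nr0b1 lie farthest left, while Sall4 lies near 0 in both sets.

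Of the core factors, Sox2, the DNA-binding partner of OCT4, fell in both sets. In set 1, Sox2 had 359, 351, 324 and 348 CPM in KO samples, against 747 and 662 CPM in WT samples. In set 2 it had 292, 283, 305 and 386 CPM in KO, against 465.9 and 477 CPM in WT. All 4 KO samples lay below both WT samples in each set, with a log2 fold change over both sets of -0.79 (SE 0.11, edgeR adjusted p = 1.15e-05). Nanog, the factor that stabilises the undifferentiated state, also fell. Nanog stood at 120.1, 99.5, 127 and 175 CPM in the KO samples of set 1, against 242 and 196 CPM in WT. The KO samples of set 2 had 118, 109, 99.3 and 80.4 CPM, against 119.7 and 152 CPM in WT. The groups did not overlap in either set, and the log2 fold change over both was -0.57 (SE 0.13, edgeR adjusted p = 0.00329). It was called in set 1 (log2 -0.75) and not in set 2 (log2 -0.39, edgeR adjusted p = 0.0796). In set 1 the call was lost without KO 1c (edgeR adjusted p = 0.0766), KO 1e (0.0728) or WT 1a (0.207).

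Pou5f1 (ENSMUSG00000024406, chromosome 17, 35506018 to 35510772, plus strand) was counted at few reads throughout. Set 1 KO samples held 13.9, 18.1, 14.4 and 15.0 CPM of Pou5f1, against 19.4 and 14.9 CPM in WT. In set 2, KO samples held 0.731, 4.32, 3.69 and 4.63 CPM, against 5.20 and 9.52 CPM in WT samples. The groups overlapped in set 1 and not in set 2, and the log2 fold change of -0.67 (SE 0.27, edgeR adjusted p = 0.0831) was not called. Of its last 500 exonic bases, where 3′ tags fall, 170 are shared with Gm19553 on the opposite strand, and, with the default counting options in the file headers, reads that overlapped 2 genes or mapped to several places were not counted. Gm19553 itself had 0 to 2 counts per sample. How many Pou5f1 reads were left out for overlap or for multiple mapping was not tested, and its level is uncertain.

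Among the naive network factors, Gbx2 (ENSMUSG00000034486, chromosome 1, 89927956 to 89931179, minus strand), a homeobox gene and LIF-STAT3 target, fell most. In set 1, Gbx2 had 17.2, 8.40, 15.2 and 9.99 CPM in KO samples, against 82.3 and 102 CPM in WT samples. In set 2 it had 4.75, 4.70, 12.5 and 7.94 CPM in KO, against 22.4 and 23.8 CPM in WT. The highest KO sample stood at 17.2 CPM in set 1 and 12.5 CPM in set 2, below every WT sample of its set. The log2 fold change over both sets was -2.19 (SE 0.27, edgeR adjusted p = 2.77e-05), with -2.90 in set 1 and -1.54 in set 2. Gbx2 shares exonic bases with the opposite-strand gene D130058E05Rik, but not among the last 500. Nr0b1 (ENSMUSG00000025056, chromosome X, 86191764 to 86195947, plus strand) encodes DAX1, an orphan nuclear receptor that interacts with OCT4. Nr0b1 stood at 25.7, 14.2, 20.8 and 42.5 CPM in the KO samples of set 1, against 119 and 98.4 CPM in WT. The KO samples of set 2 had 6.58, 8.26, 11.8 and 32.1 CPM, against 39.3 and 58.6 CPM in WT. Within each set, every KO sample was below every WT sample, and in set 2 KO 2f, at 32.1 CPM, was the nearest to WT. The log2 fold change over both sets was -1.91 (SE 0.36, edgeR adjusted p = 0.00383), and set 2 alone did not pass (log2 -1.78, edgeR adjusted p = 0.134). That depended on the fit. Without KO 2f, set 2 gave -2.40 (edgeR adjusted p = 2.10e-11). With every library its own sample and the sub-batches described below as a covariate, set 2 gave -1.65 (edgeR adjusted p = 9.86e-06). In that fit 2 libraries of 1 title code counted as separate samples, which they may not be.

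Esrrb (ENSMUSG00000021255, chromosome 12, 86361117 to 86521628, plus strand), an orphan nuclear receptor that activates the naive network, was lower in all 8 KO samples. Set 1 KO samples held 102, 116, 86.5 and 71.2 CPM of Esrrb, against 219.5 and 304 CPM in WT. In set 2, KO samples held 174, 206, 162 and 170.4 CPM, against 314 and 377 CPM in WT samples. The log2 fold change over both sets was -1.19 (SE 0.13, edgeR adjusted p = 1.41e-06). Sall1 (ENSMUSG00000031665, chromosome 8, 89027235 to 89044162, minus strand), a zinc-finger partner of NANOG, was also lower in every KO sample. In set 1, Sall1 had 52.5, 51.7, 56.1 and 58.7 CPM in KO samples, against 139 and 131 CPM in WT samples. In set 2 it had 178, 222, 226 and 297 CPM in KO, against 457 and 507 CPM in WT. The log2 fold change over both sets was -1.15 (SE 0.11, edgeR adjusted p = 2.56e-07), the smallest adjusted p of the 35. Prdm14, which represses genes of lineage commitment, was near the floor in set 1 and was not tested in that set alone. Prdm14 stood at 4.29, 1.94, 1.6 and 3.12 CPM in the KO samples of set 1, against 15.3 and 6.62 CPM in WT. The KO samples of set 2 had 5.12, 3.00, 2.58 and 5.96 CPM, against 4.55 and 8.33 CPM in WT. The groups did not overlap in set 1 and overlapped in set 2. Its log2 fold change over both sets of -1.18 (SE 0.33, edgeR adjusted p = 0.0145) was lost without WT 1a (edgeR adjusted p = 0.0869) or without WT 2b (0.0841).

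Zfp42 (REX1, a zinc-finger marker of naive ESCs) had a log2 fold change of -0.95 over both sets, Tbx3 (a T-box factor) of -0.86, Nr5a2 (a nuclear receptor that can activate Pou5f1) of -0.82 and Tfcp2l1 (a LIF-STAT3 effector) of -0.77. Each of these was called over both sets and in each set alone. In set 2 all 4 calls were lost without WT 2b (edgeR adjusted p = 0.114 to 0.221), and that of Nr5a2 without WT 2a (0.0598). With every set 2 library its own sample and its sub-batch as a covariate, the set 2 fold changes of Tbx3 (-0.37, edgeR adjusted p = 0.332) and Tfcp2l1 (-0.47, 0.0668) were not called. Foxd3, Sall4 and Zscan10 were not called, at -0.32, 0.01 and -0.19. Sall4 was level in both sets, with 258, 218, 254 and 216 CPM in KO and 214 and 246 CPM in WT of set 1, and 217, 231, 243 and 233 CPM in KO and 223 and 250.4 CPM in WT of set 2.

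Of the ESC-restricted proteins and enzymes, Eras and Tcl1 fell most. Eras (ENSMUSG00000031160, chromosome X, 7924276 to 7928607, minus strand) encodes a constitutively active RAS protein of ESCs. Set 1 KO samples held 12.9, 7.10, 7.21 and 16.9 CPM of Eras, against 29.1 and 26.5 CPM in WT. In set 2, KO samples held 12.4, 21.8, 14.7 and 12.2 CPM, against 30.9 and 30.8 CPM in WT samples. The groups did not overlap, with a log2 fold change over both sets of -1.09 (SE 0.19, edgeR adjusted p = 0.000309). Of its last 500 exonic bases, 135 are shared with the opposite-strand gene Pcsk1n, which had 12 to 93 counts per sample. In set 1 alone the Eras call was lost without KO 1e (edgeR adjusted p = 0.0615), WT 1a (0.114) or WT 1b (0.0508). Tcl1, whose set 1 call was lost without WT 1b (edgeR adjusted p = 0.0716), encodes a co-activator of AKT kinase (ENSMUSG00000041359, chromosome 12, 105216750 to 105222793, minus strand) and was lower in every KO sample. In set 1, Tcl1 had 24.7, 34.9, 23.2 and 15.6 CPM in KO samples, against 51.7 and 57.1 CPM in WT samples. In set 2 it had 24.9, 22.7, 33.0 and 39.0 CPM in KO, against 54.0 and 62.5 CPM in WT. The log2 fold change over both sets was -1.03 (SE 0.17, edgeR adjusted p = 0.000112).

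The remaining genes with this role had smaller differences over both sets. The chromatin-associated factor gene Utf1 had a log2 fold change of -0.84, Dppa2 of -0.74, the F-box gene Fbxo15 of -0.52, Dppa4 of -0.46, L1td1 (an RNA-binding protein gene) of -0.41 and Tdh (threonine dehydrogenase) of -0.39, all called. Dppa5a was not called at -0.69 (edgeR adjusted p = 0.117). Its KO samples spread widely in set 1, with 284, 107, 192 and 290.3 CPM in KO, against 466.5 and 530.1 CPM in WT. Dppa2 and Dppa4 are neighbours on chromosome 16 and act as a pair. Dppa2 was called in set 1 (log2 -0.89) and Dppa4 in set 2 (log2 -0.67). For neither did the difference between sets pass (edgeR adjusted p = 0.711 for Dppa2 and 0.393 for Dppa4).

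Spp1 (ENSMUSG00000029304, chromosome 5, 104435118 to 104441050, plus strand), which encodes the secreted matrix protein osteopontin, fell among the secreted and surface proteins. Spp1 stood at 51.5, 35.5, 54.5 and 71.2 CPM in the KO samples of set 1, against 165 and 114 CPM in WT. The KO samples of set 2 had 39.1, 56.7, 60.4 and 77.8 CPM, against 84.5 and 122 CPM in WT. KO and WT did not overlap, and the log2 fold change over both sets was -1.07 (SE 0.19, edgeR adjusted p = 0.000711). The junction protein gene Jam2 fell as well (log2 -0.88). The TGF-β family ligand gene Gdf3, at -0.18, and the adhesion receptor gene Pecam1, at -0.11, were not called. Of the chromatin and repressor proteins, the Polycomb cofactor gene Jarid2 fell (log2 -0.52), while the co-repressor gene Trim28 (-0.16), Rif1 (-0.23) and Nacc1 (-0.20) were not called. Mybl2, a cell-cycle activator, fell (log2 -0.51), and Myc (-0.40) and Mycn (0.18) were not called.

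Fitted alone, set 1 had 19 of 34 tested members lower and none higher (all genes 5.1% lower and 7.19% higher), and set 2 had 17 of 35 lower and none higher (all genes 3.55% lower and 5.64% higher). DESeq2 called 20 lower and 0 higher in set 1, and 19 lower and 0 higher in set 2. At an unadjusted p under 0.05, none was higher in set 1 and 1, Mycn, in set 2. Called in both sets were 14 members, with 5 passing in set 1 alone, 3 in set 2 alone and 13 in neither. The difference between sets was called for 0 of 35 members by edgeR and by DESeq2, against 0.828% of all genes by edgeR. At an unadjusted edgeR p under 0.05 there were 10, against 1283 of all 11950 genes tested. The set 2 count depended on single samples: it was 3 without WT 2b, 11 without WT 2a and 29 without KO 2f. With every library its own sample and the sub-batches described next as a covariate it was 19.

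**Figure D2:**
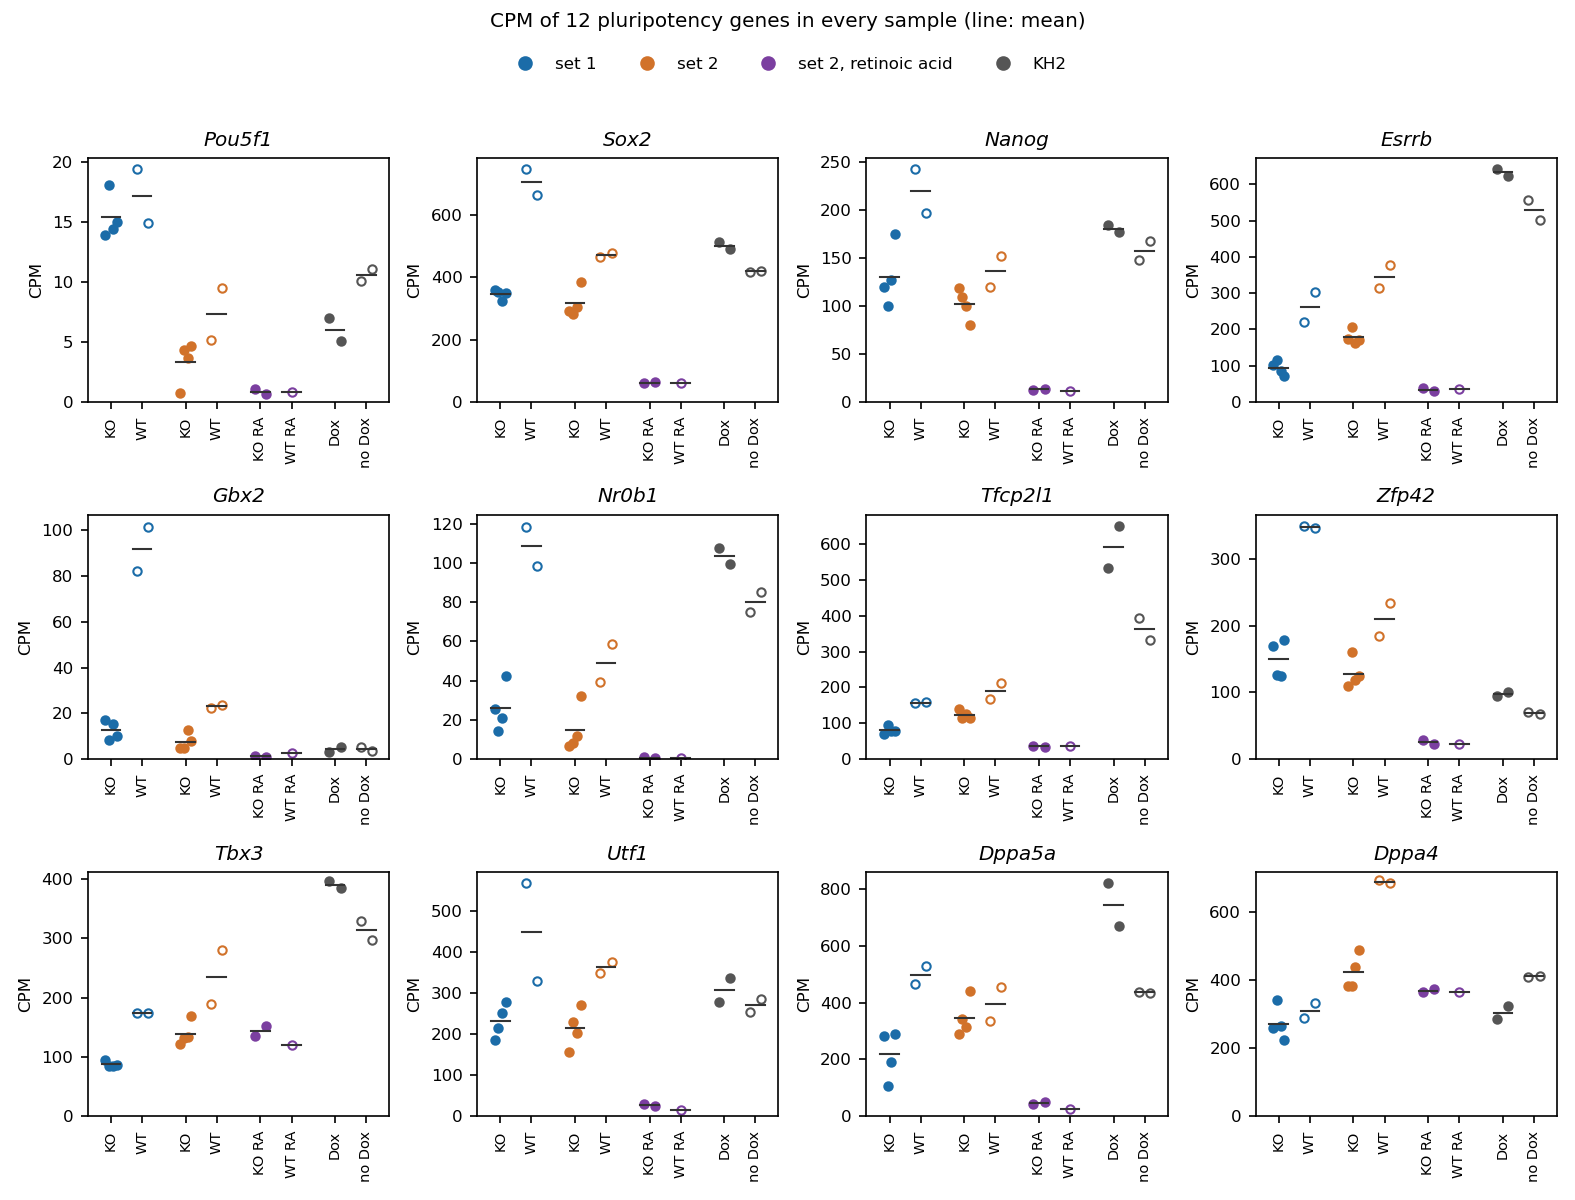
CPM of 12 of the genes in every sample, with a line at the mean of each group; filled points are KO, KO with RA or Dox samples, and open points are WT, WT with RA or no-Dox samples. Sox2, Esrrb, Gbx2 and Tbx3 separate KO from WT in both sets, whereas Pou5f1 overlaps in set 1 and lies below 20 CPM throughout. For Tbx3 in set 2 this holds for the summed samples, and in sub-batch B, described below, KO libraries were above WT.

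The 10 untreated libraries of set 2 fell into 2 sub-batches, A and B, along the leading component of their profiles after WT and KO means were removed (36.9% of the variance), with no library between -10.44 and 15.32 on it. No title gives this split, which was drawn after the data were seen. Each holds 3 KO and 2 WT libraries. In each of the 4 samples made of 2 libraries, the lower-numbered library was in A and the other in B. The summed samples held A and B in unequal parts. WT 2b had 7941952 counts from A and 2275088 from B, and KO 2e 1423772 from A and 4106207 from B. KO 2c was from B only and KO 2f from A only. WT therefore held a larger share of A than KO in every fit of summed set 2 samples, where genotype and sub-batch are partly confounded. Of the 35 genes, 10 were called lower and 1 higher in KO in A (all genes 1.61% lower and 2.45% higher), and 20 lower and none higher in B (all genes 6.4% lower and 7.27% higher). Esrrb, Nr0b1, Gbx2, Sall1, Mybl2 and Spp1 were called lower in both. The difference between A and B was called for 6 of the 35, against 0.533% of all 11820 genes tested. Since the cut was made on the same libraries, this test is not independent of it. It also counted every library as its own sample and ignored shared title codes, although 2 libraries of 1 code may not be separate samples.

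Tbx3, Tfcp2l1 and Nanog were lower in KO in sub-batch A, and not in B. Tbx3 had 155, 163 and 168 CPM in KO, against 302 and 321 CPM in WT in A, and 121, 114 and 122 CPM in KO, against 86.9 and 99.6 CPM in WT in B. KO was below WT in A and above it in B, a difference of 1.25 on the log2 scale (SE 0.16, edgeR adjusted p = 2.55e-05). Tfcp2l1 had 112, 115 and 115 CPM in KO, against 212 and 231 CPM in WT in A, and 138, 111 and 127 CPM in KO, against 125 and 114 CPM in WT in B (difference 0.98, SE 0.17, edgeR adjusted p = 0.00224). Its KO libraries had similar levels in both sub-batches, and its WT libraries were higher in A. For Nanog the log2 fold change was -0.85 in A and 0.12 in B (edgeR adjusted p of the difference = 0.00489).

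Utf1, Fbxo15 and Mycn differed the other way. Utf1 had 326, 333 and 269.8 CPM in KO, against 363 and 386 CPM in WT in A, and 153, 161 and 154 CPM in KO, against 319 and 283 CPM in WT in B, so its groups did not overlap in either (difference -0.71, SE 0.16, edgeR adjusted p = 0.0252). Fbxo15 had a log2 fold change of -0.07 in A and -0.75 in B, and Mycn of 0.61 in A, where it was called higher, and -0.20 in B. With set 2 restricted to sub-batch B, the calls over both sets were lost for Tbx3 (edgeR adjusted p = 0.203), Nanog (0.141) and Mybl2 (0.0563), and with A for Dppa4 (0.157) and Fbxo15 (0.0519).

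**Figure D3:**
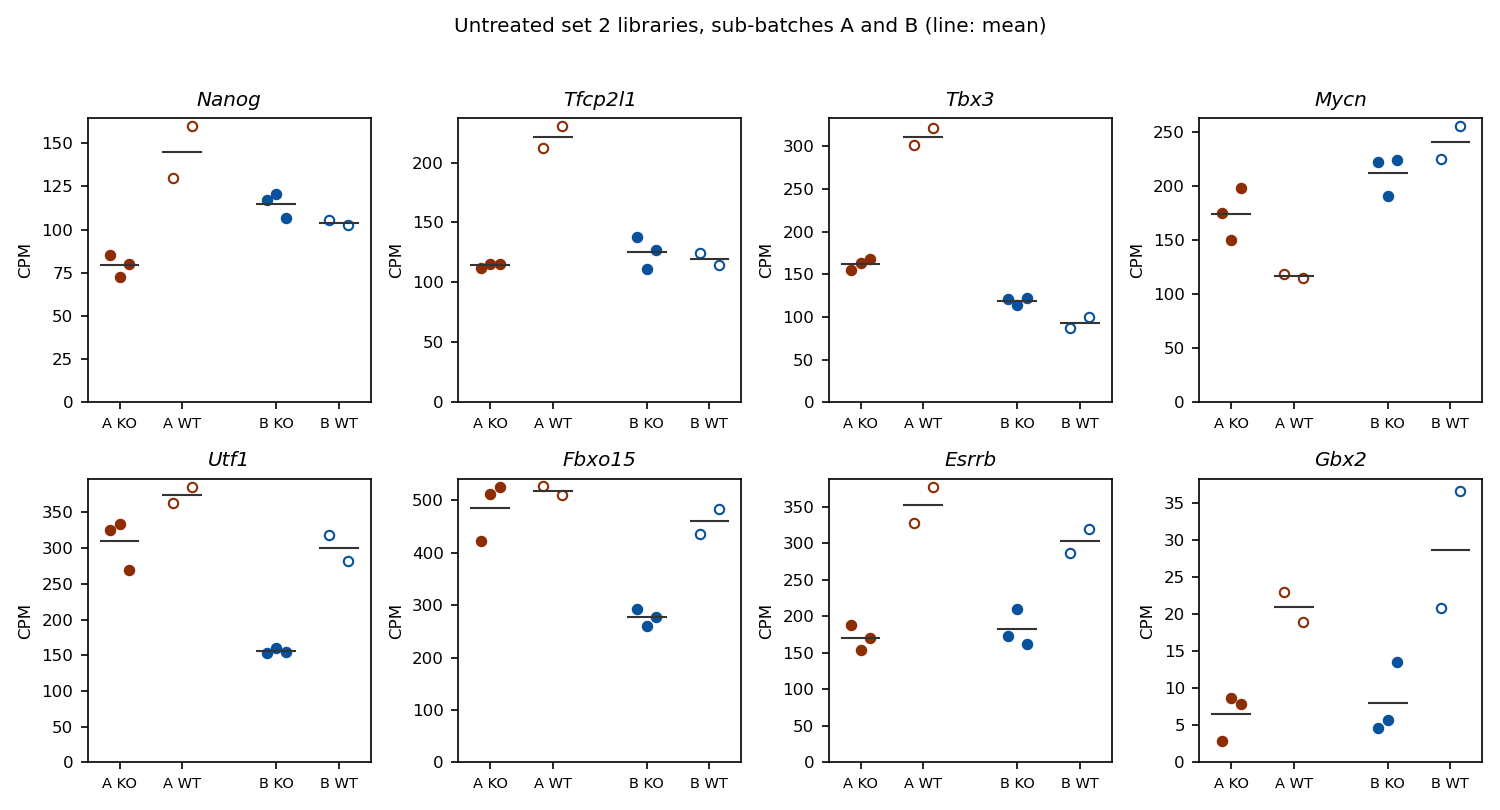
CPM of 8 of the genes in the untreated set 2 libraries, by sub-batch, with KO (filled) left of WT (open) and a line at each mean. Nanog, Tfcp2l1 and Tbx3 separate the genotypes in A and not downwards in B, while Esrrb and Gbx2 are lower in KO in both.

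Other genes of the ESC state moved both ways. Of 30 other naive and ESC genes, 13 fell and 6 rose in KO over both sets. Of all genes tested, 8.63% were called lower and 10.4% higher. Among those that fell were the RAS-related GTPase gene Mras (log2 -2.02), the 5-methylcytosine oxidase gene Tet2 (-1.48) and Klf4 (-1.35). Those that rose were the Nodal inhibitor gene Lefty1 (1.26), Dppa3 (1.02), Id1 (0.94), Nodal (0.46), Cdh1 (0.35) and Epcam (0.34). Of 20 formative and primed genes, 9 rose and 3 fell, with Wnt8a at 3.10, Fgf5 at 1.85 and Dnmt3b at 0.57, and Etv4, a target of FGF signalling, at -1.32. Of 17 tested primitive endoderm genes, 12 rose and none fell, among them the laminin gene Lamb1 (1.15) and the collagen gene Col4a1 (1.43). Of 18 tested retinoic acid response and neural genes, 5 rose and 4 fell, including Zfhx3 (0.92) and Stra8 (-1.84). Markers of the feeder fibroblasts moved too, with 8 of 23 tested markers higher in KO and none lower. The 7 defining ones (Col1a1, Col1a2, Col3a1, Postn, Lum, Dcn and Thy1) summed to 61.3 to 88.1 CPM in KO and 11.6 to 21.8 CPM in WT of set 1, and to 80.8 to 116 CPM in KO and 52.0 to 69.9 CPM in WT of set 2, with Lum at 0 in all but KO 2e, Postn at 0 in 5 of these 12 samples, Dcn at 0 in both WT samples of set 1 and Col3a1 at 0 in WT 1b. The sums of all 30 markers were 384 to 672 CPM in KO and 202 to 278 CPM in WT of set 1, and 463 to 800.1 CPM in KO and 378 to 465 CPM in WT of set 2. Their part in the falls of the pluripotency genes was not tested.

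After 4 d of RA nearly all of the 35 genes were lower in both genotypes. In KO, 33 were called lower and 1 higher (all genes 26.8% lower and 28.3% higher), with a median log2 fold change of -2.44. In WT, 34 were lower and none higher, with the same counts by DESeq2 and at an unadjusted p under 0.05 (all genes 22.5% lower and 24.8% higher), with a median of -3.24. The WT sample after RA is single, and its spread was taken from the other set 2 groups. Of 27 tested retinoic acid response and neural genes, 23 rose and 2 fell in KO, and 18 rose in WT, with the RA-degrading enzyme gene Cyp26b1 at log2 4.27 in KO and 4.36 in WT and Hoxa5 at 4.42 in KO and 4.77 in WT.

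Nr0b1, Foxd3, Eras, Utf1 and Prdm14 had the lowest fold changes in WT. Nr0b1 had 0.848 and 0.441 CPM in KO after RA, against 6.58, 8.26, 11.8 and 32.1 CPM in untreated KO, and 0.544 CPM in WT after RA, against 39.3 and 58.6 CPM in untreated WT. After RA it rested on 6 counts in KO, a ratio to untreated KO of 0.0459 (95% interval 0.0166 to 0.101), and on 2 counts in WT, a ratio of 0.0104 (0.00126 to 0.0377). These intervals cover counting error only. Foxd3, a forkhead repressor needed to maintain ESCs, had 2.33 and 2.42 CPM in KO after RA, against 35.5, 51.5, 39.1 and 61.2 CPM untreated, and 1.36 CPM in WT after RA, against 54.3 and 70.9 CPM untreated. Its log2 fold change was -4.39 (SE 0.29, edgeR adjusted p = 2.01e-12) in KO and -5.55 (SE 0.47, edgeR adjusted p = 3.56e-10) in WT. Eras had 3.39 and 2.64 CPM in KO and 0.816 CPM in WT after RA, with ratios to untreated cells of 0.179 (95% interval 0.117 to 0.264) in KO and 0.0272 (0.00559 to 0.0802) in WT. Prdm14 was down to 2 counts in both KO samples together and 1 in WT, with ratios of 0.055 (0.00651 to 0.207) in KO and 0.0379 (0.000949 to 0.216) in WT. The fitted log2 fold change of Nr0b1 was -4.33 (SE 0.61, edgeR adjusted p = 1.65e-05) in KO and -6.48 (SE 0.80, edgeR adjusted p = 5.30e-06) in WT. That of Eras was -2.46 (SE 0.30, edgeR adjusted p = 9.51e-08) in KO and -5.23 (SE 0.55, edgeR adjusted p = 9.49e-09) in WT, and that of Prdm14 -4.12 (SE 0.75, edgeR adjusted p = 3.81e-05) in KO and -4.55 (SE 1.00, edgeR adjusted p = 0.000458) in WT.

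In KO, Gdf3 and Tdh were among the 5 lowest together with Foxd3, Nr0b1 and Prdm14. Gdf3 had 5.30 and 4.41 CPM in KO after RA, against 50.4, 59.7, 67.3 and 78.1 CPM untreated (log2 -3.81, SE 0.20, edgeR adjusted p = 5.87e-15), and 5.17 CPM in WT after RA (log2 -4.05, SE 0.29, edgeR adjusted p = 6.06e-12). Tdh had 128 and 114 CPM in KO after RA, against 1345, 1100.0, 1028 and 1069 CPM untreated (log2 -3.34, SE 0.12, edgeR adjusted p = 5.74e-18), and 98.4 CPM in WT after RA (log2 -3.72, SE 0.18, edgeR adjusted p = 4.03e-15). For Nr0b1, Foxd3, Eras, Prdm14, Gdf3 and Tdh, the RA samples lay under every untreated sample of their genotype.

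The core factors and Esrrb were also called lower with RA in both genotypes. Sox2 had 62.3 and 62.8 CPM in KO and 62.0 CPM in WT after RA. Its log2 fold change with RA was -2.44 (SE 0.12, edgeR adjusted p = 2.68e-15) in KO and -2.97 (SE 0.18, edgeR adjusted p = 2.33e-13) in WT. Nanog had 12.9 and 13.2 CPM in KO and 11.1 CPM in WT. For Nanog with RA it was -3.06 (SE 0.16, edgeR adjusted p = 6.60e-15) in KO and -3.65 (SE 0.24, edgeR adjusted p = 1.49e-12) in WT. Esrrb had 37.3 and 31.7 CPM in KO and 35.9 CPM in WT. For Esrrb the log2 fold change was -2.47 (SE 0.13, edgeR adjusted p = 6.01e-15) in KO and -3.31 (SE 0.19, edgeR adjusted p = 7.56e-14) in WT. Pou5f1 had a log2 fold change of -2.07 (SE 0.60, edgeR adjusted p = 0.00442) in KO and -3.24 (SE 0.82, edgeR adjusted p = 0.00178) in WT. It stood on 8 counts in KO and 3 in WT after RA, with ratios of 0.231 (95% interval 0.0954 to 0.486) in KO and 0.0995 (0.0202 to 0.299) in WT. Its KO samples after RA overlapped untreated KO, where KO 2c was at 0.731 CPM, and the KO call was lost without KO 2d (edgeR adjusted p = 0.268) or KO RA 2i (0.0628).

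Among genes called lower, Dppa4 and Nacc1 had the fold changes closest to 0. Dppa4 had 364 and 374 CPM in KO after RA, against 382, 382, 438 and 489 CPM untreated (log2 -0.30, SE 0.10, edgeR adjusted p = 0.0119), and 365 CPM in WT after RA, against 694 and 685 CPM untreated (log2 -0.96, SE 0.14, edgeR adjusted p = 3.31e-06). The KO call was lost without KO RA 2h (edgeR adjusted p = 0.124) or 2i (0.0662). Against untreated KO1 alone, the line that both RA samples are titled for, it was -0.16 (edgeR adjusted p = 0.244). Nacc1, a BTB-domain transcriptional regulator, had 59.2 and 53.3 CPM in KO after RA, against 66.5, 62.0, 70.9 and 97.6 CPM untreated (log2 -0.49, SE 0.14, edgeR adjusted p = 0.00401), and 63.1 CPM in WT after RA, against 104 and 100.1 CPM untreated (log2 -0.73, SE 0.19, edgeR adjusted p = 0.00276), and its KO call was lost without KO RA 2i (edgeR adjusted p = 0.0727). Against untreated KO1 alone it was -0.30 (edgeR adjusted p = 0.128). With sub-batch B alone as the untreated libraries, the KO fold change was -0.14 for Dppa4 (edgeR adjusted p = 0.154) and -0.17 for Nacc1 (0.284). Myc was the only member called higher, in KO (log2 0.81, SE 0.23, edgeR adjusted p = 0.00453), with 20.6 and 32.8 CPM after RA and 10.6, 14.6, 15.7 and 14.9 CPM untreated. That call was lost without KO RA 2i (edgeR adjusted p = 0.256), and in WT Myc was not called (edgeR adjusted p = 0.244; called without WT 2b, 0.0357), with 20.4 CPM after RA and 8.78 and 17.5 CPM untreated. Of 27 tested feeder markers, 24 were called higher with RA in KO and 1, Col6a3, lower (all genes 28.3% higher and 26.8% lower). In WT, 23 were higher and none lower (all genes 24.8% higher and 22.5% lower). Thy1, a defining marker, was not called in either genotype. The 7 defining ones summed to 636 to 662 CPM in KO and 651 CPM in WT after RA, against 80.8 to 116 CPM in untreated KO and 52.0 to 69.9 CPM in untreated WT. All 30 summed to 2730.1 to 3148 CPM in KO and 2837 CPM in WT after RA, with Lum at 0 in all but KO RA 2h. Their part in the falls was not tested.

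**Figure D4:**
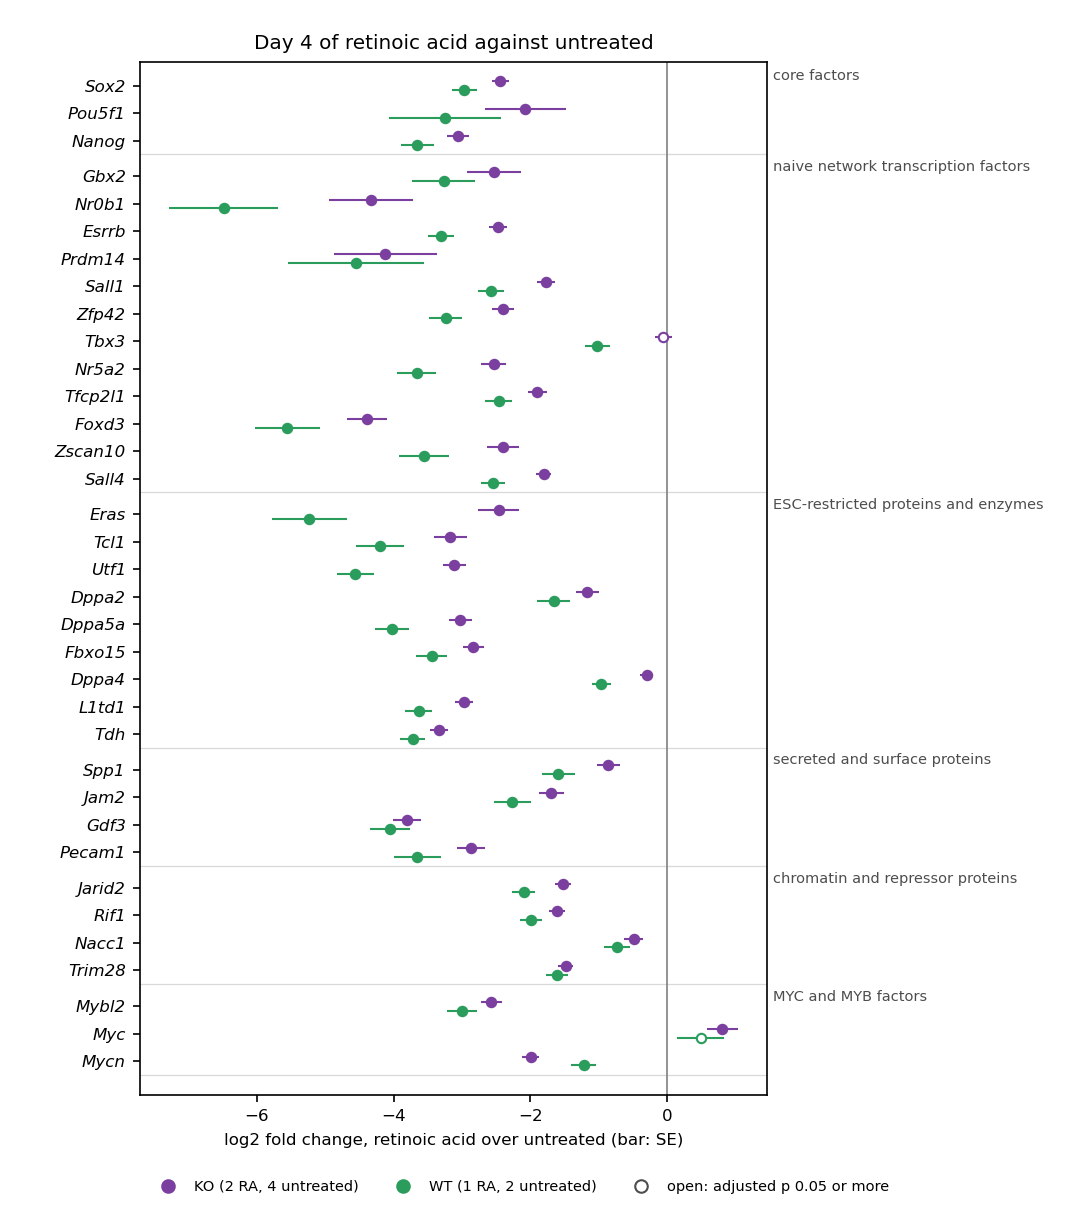
Log2 fold changes of day 4 RA over untreated cells for the 35 genes, in KO (purple) and WT (green), with bars for the standard error; filled points passed an adjusted p of 0.05. For 34 of the 35 the WT point lies left of the KO point, or lower; Mycn is the exception.

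The RA fold change was higher in KO than in WT for 34 of 35 genes, less negative for all of these but Myc, which was positive in both. The median difference was 0.66. That difference equals KO over WT after RA minus KO over WT before it, so a gene already lower in untreated KO and level after RA gives a positive value. After RA, 0 of 35 genes differed between KO and WT by edgeR, against 0.396% of all genes, and DESeq2 called 1, Sall4. At an unadjusted edgeR p under 0.05 there were 5, against 929 of all 14659 genes tested. The median fold change of the 35 was 0.12. The difference in RA response was called for 2 genes, both positive (all genes 0.348% positive and 0.744% negative). The count moved with the untreated samples used: it was 10 positive and 1 negative without KO 2f, 8 positive and 1 negative with sub-batch A, and 10 positive with sub-batch B. DESeq2 also called 2, Utf1 and Dppa4, with an adjusted p of 0.0411 for Dppa4 and 0.0642 for Tbx3. Utf1 had 28.4 and 24.7 CPM in KO after RA, against 155, 229, 201 and 271 CPM untreated, and 15.8 CPM in WT after RA, against 348 and 375 CPM untreated. Its RA log2 fold changes were -3.11 (SE 0.17, edgeR adjusted p = 3.81e-13) in KO and -4.56 (SE 0.27, edgeR adjusted p = 3.00e-12) in WT, a difference of 1.44 (SE 0.31, edgeR adjusted p = 0.0243). Tbx3 had 135 and 152 CPM in KO after RA, against 122, 132, 134 and 168 CPM untreated, a log2 fold change of -0.05 (SE 0.13, edgeR adjusted p = 0.752). In WT it had 120.2 CPM after RA, against 189.6 and 281 CPM untreated (log2 -1.02, SE 0.19, edgeR adjusted p = 8.21e-05), and the difference between genotypes was 0.96 (SE 0.23, edgeR adjusted p = 0.0329). Untreated Tbx3 differed between sub-batches, and with sub-batch B alone as the untreated cells its RA fold change in WT was 0.26 and the difference between genotypes -0.11. Without KO RA 2h, KO RA 2i or WT 2b, neither call was kept, and without KO 2c that of Tbx3 was lost (edgeR adjusted p = 0.0677).

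Sall4, whose product supports Pou5f1 expression, was level in untreated cells and separated after RA, at 69.6 and 73.0 CPM in KO and 41.6 CPM in WT. The log2 fold change of KO over WT after RA, 0.73 (SE 0.17, edgeR adjusted p = 0.0516), and the difference in RA response, 0.74 (SE 0.20, edgeR adjusted p = 0.0648), did not pass. Both passed without KO 2e (edgeR adjusted p = 0.0256 and 0.0463), without KO 2f (0.0205 and 0.0293), without a low-count filter (0.0253 and 0.0456) and with either sub-batch as the untreated libraries (0.00501 to 0.0295). Over all alternatives the adjusted p reached 0.439 after RA and 0.487 for the difference in RA response. This gene was singled out after its values were seen.

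Genes were ranked by their loss in KO and by their loss with RA. The ranking used set 1, which shares no sample with the RA comparison, and the 34 genes tested in it, with rank 1 the lowest fold change. Across genes, the set 1 KO fold change had a Pearson correlation of 0.267 and a Spearman correlation of 0.218 with the RA fold change in WT, and of 0.121 and 0.105 with that in KO. These are descriptions across genes, which are not independent. Nr0b1 was at rank 2 for KO and rank 1 for RA, and Eras at ranks 5 and 3. Gdf3 (ranks 32 and 6), Foxd3 (27 and 2) and Zscan10 (33 and 13) were near the bottom for KO and far up for RA. Foxd3, for example, had a log2 fold change of -0.16 in set 1 KO and -5.55 with RA. Spp1 (ranks 4 and 29), Tbx3 (13 and 31), Myc (16 and 34), Jam2 (8 and 24), Gbx2 (1 and 16) and Sall1 (6 and 21) stood higher for KO than for RA.

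With Dox in KH2 cells, 4 of the genes were called. No KH2 cells without tagged SETa were sampled with Dox, so an effect of Dox itself cannot be told apart from one of SETa. Set was at 1197 ± 99.6 CPM with Dox and 992 ± 40.2 CPM without (SD, n = 2 each). Of the 35, 3 were called higher and 1 lower (all genes 0.896% higher and 0.904% lower). Their fold changes were positive for 26 and negative for 9, with a median of 0.21, against 0.0038 over all genes. At an unadjusted edgeR p under 0.05, 14 were higher and 4 lower, and of all 12723 genes tested 1962 passed in either direction. Both Dox samples lay above both no-Dox samples for 17 of the 35 and below them for 5. The share of all genes without overlap was not counted, so these 2 numbers are a description only. DESeq2 called 2 higher and 1 lower. Dppa5a, an RNA-binding protein gene, had 821 and 671 CPM with Dox, against 438 and 435 CPM without (log2 0.78, SE 0.11, edgeR adjusted p = 0.000239). Tfcp2l1 had 535 and 651 CPM with Dox, against 393 and 333 CPM without (log2 0.71, SE 0.12, edgeR adjusted p = 0.00139). Zfp42 had 94.6 and 100.4 CPM with Dox, against 70.4 and 67.9 CPM without (log2 0.50, SE 0.13, edgeR adjusted p = 0.0453). Dppa4 went the other way, with 285 and 323 CPM with Dox, against 409 and 411 CPM without (log2 -0.43, SE 0.11, edgeR adjusted p = 0.0389). In each of these 4 genes the Dox and no-Dox samples did not overlap. None of the 4 calls was kept without no-Dox sample 2 (edgeR adjusted p = 0.109 for Dppa5a, 0.247 for Tfcp2l1, 0.409 for Zfp42 and 0.388 for Dppa4). Those of Zfp42 and Dppa4 were also lost without Dox sample 1 (edgeR adjusted p = 0.0698 for Zfp42 and 0.218 for Dppa4) or no-Dox sample 1 (0.166 and 0.167), and that of Zfp42 without Dox sample 2 (0.147). By DESeq2 the adjusted p of Zfp42 was 0.0804.

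Esrrb (log2 0.26), Sox2 (0.27), Nanog (0.20) and Nr0b1 (0.38) were not called. Pou5f1 had 6.99 and 5.07 CPM with Dox and 10.1 and 11.1 CPM without and was not called (log2 -0.79, SE 0.30, edgeR adjusted p = 0.18). Gbx2, lowest in KO, stood at 3.25 and 5.27 CPM with Dox and 5.35 and 3.54 CPM without. Of the 28 genes with a negative fold change in set 1 KO, 22 had a positive one with Dox, and of the 6 with a positive one, 3. Across the 34 genes the Pearson correlation of the set 1 KO and Dox fold changes was -0.322 and the Spearman correlation -0.489. Of all 35 genes, 26 were positive with Dox whatever their KO fold change. Neither these counts nor the correlations were computed over all genes, so they are descriptions only. Feeder markers ran lower with Dox, with 6 of 27 called lower and none higher. Their 7 defining genes summed to 395 to 476 CPM with Dox and 663 to 721 CPM without. All 30 summed to 1002 to 1209.9 CPM with Dox and 1607 to 1625 CPM without, and Lum was at 0 in all but no-Dox sample 1. The part of this shift in the Dox values was not tested.

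**Figure D5:**
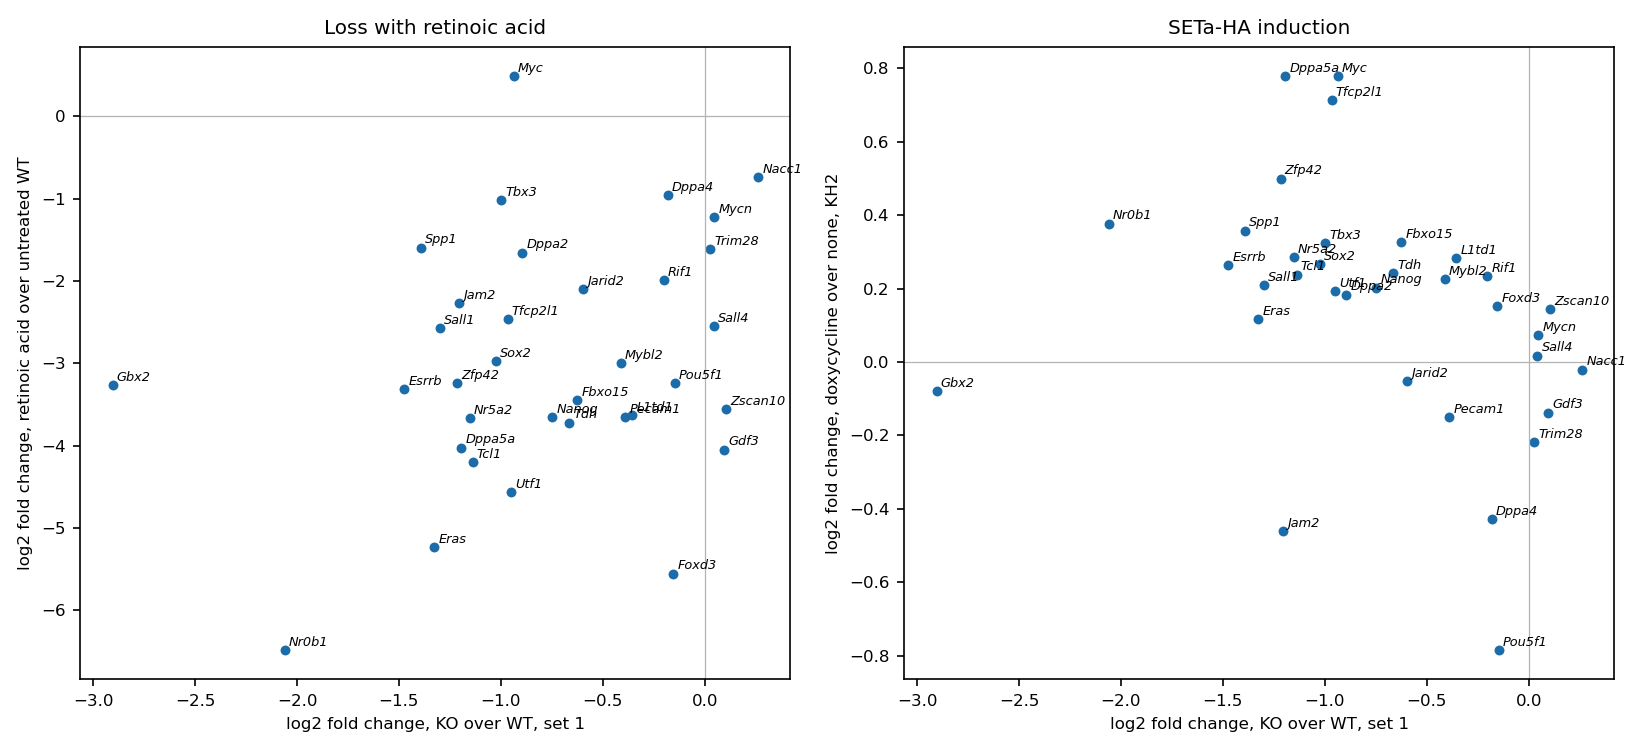
Log2 fold change in set 1 KO (horizontal) against that of RA in WT (left, vertical) and of Dox in KH2 cells (right, vertical), 1 point per gene for the 34 genes tested in all. Gdf3, Foxd3 and Zscan10 lie near 0 for KO and low for RA; Tfcp2l1, Dppa5a and Zfp42 lie left of 0 for KO and above 0 for Dox.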

How the data were processed

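QuantSeq-type 3′ RNA libraries gave raw read counts per gene, which the authors deposited as 1 table per library. Per the file headers, the counts came from featureCounts 1.6.0 with default options and the Ensembl 97 annotation of GRCm38. The submitters' processing notes also list STAR 2.5.4b and Subread 2.0.0. The 23 libraries were summed by title code into 19 samples. Counts were tested in R 4.3.3 with edgeR 4.0.16: TMM factors, filterByExpr (minimum count 10, total 15) and robust quasi-likelihood F tests, with Benjamini-Hochberg adjustment over all genes tested. An SE is the log2 fold change divided by the square root of F. The fits were also run on simulated counts, drawn independently for each sample and without sub-batches. Such a run cannot show that the p-values hold for the set 2 samples or for the single WT sample after RA. DESeq2 1.42.0, other filters and scalings, leaving out each sample, the replicate number as a block and the set 2 sub-batches were alternatives. The members, roles and gene lists were chosen with earlier results of these data known. Values in every sample went to members with a log2 fold change of -1 or less in KO, to Pou5f1, Sox2, Nanog and Esrrb, to members called for Dox or for the difference in RA response, and to the extremes of the RA fold changes. Same-numbered samples did not all deviate together, so the fits had no block.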

Additional observations from a re-analysis of the deposited data

Results flagged for a closer look

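The difference in RA response between KO and WT was called for 2 genes by the interaction term of the edgeR fit. The spread of the single WT sample after RA was not measured and was taken from the other set 2 groups. Tbx3 had an interaction of 0.96 on the log2 scale and Utf1 of 1.44, both meaning a less negative RA fold change in KO than in WT. For Tbx3 it was -0.11 with sub-batch B as the untreated libraries, and both calls rest on 1 WT sample after RA. Of 15 alternative runs, the call was lost in 7 for Tbx3 and in 4 for Utf1. In 70 groups of 4 values no sample stood apart from the other 3 by Dixon's criterion, which chance alone meets in about 5% of groups.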

How the results depend on the processing

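Of 4527 recomputed fold changes of the 35 genes, 4304 kept their side of the threshold and, where called, their direction (93 uncalled ones among them changed sign), 110 lost a call, 109 gained one and 4 called ones reversed. All 4 arose with sub-batch B alone: Tfcp2l1 (0.051) and Tbx3 (0.33) in set 2 KO, and Tbx3 for RA in WT (0.26) and for the difference in RA response (-0.11). The cause of the changes below was not tested. With 1 sum per line and set, 1426 genes were called in KO over both sets. In set 2 KO, 759 genes were called with every library its own sample, 434 in sub-batch A (members 10 lower, 1 higher) and 454 with the replicate block (12 members lower). For the difference between sets, 171 genes were called without a low-count filter (1 member higher), 43 with the replicate block, and 2 members higher with sub-batch B. For RA in WT, 1 member was higher with sub-batch B. For KO over WT after RA, members higher were 1 with DESeq2 and 2 each without a filter, with sub-batch A and with B, and genes called were 8 with every library its own sample, 94 without a filter, 164 with A and 160 with B. For the difference in RA response, 98 genes were called with DESeq2, 2 with every library its own sample (0 members), 284 without a filter (1 member lower, 9 higher), 336 with A (1 lower, 8 higher) and 380 with B (10 higher). With untreated KO1 alone, 4 members were higher. For Dox, 127 genes were called with DESeq2 and 724 with the replicate block (2 members lower, 7 higher).

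Leaving out each sample in turn gave 1553 to 2416 genes called in KO over both sets (22 to 24 members lower), 570 to 1388 in set 1 (15 to 22), 195 to 2335 in set 2 (3 to 29 lower, 0 to 1 higher) and 22 to 127 for the difference between sets. It gave 5558 to 7224 for RA in WT (34 lower throughout, 0 to 1 higher), 6191 to 7919 for RA in KO (30 to 33 lower, 0 to 1 higher), 15 to 98 after RA (0 to 1 higher), 27 to 388 for the difference in RA response (0 to 1 lower, 0 to 10 higher) and 6 to 234 for Dox (0 to 1 lower, 0 to 3 higher). Where this left 1 sample in a group, that sample was assumed to vary like the others. The replicate number as a block gave 1738 genes and 22 members lower in KO over both sets, and 1032 and 19 in set 1. Same-numbered samples correlated at -0.152 to 0.047 in set 1, 0.038 in KH2 cells and -0.272 to 0.231 in set 2, so the numbers were not taken as pairs. In set 2 those of WT and KO2 correlated at 0.179 to 0.231 and the other combinations were negative. Libraries 1, 2 and 3 were in sub-batches A, B and A in WT and in KO2, and in B, A and B in KO1. The set 2 correlations therefore cannot tell shared replicates from shared sub-batches, and each block of libraries 1, 2 or 3 mixed A with B. With this block the set 2 calls of L1td1, Tbx3, Utf1, Jarid2 and Jam2 were lost, which is no test of pairing. Depth limits the genes on few counts after RA (Nr0b1, Prdm14, Eras, Pou5f1 and Foxd3) and Prdm14 in set 1.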

Other observations

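Primitive endoderm genes differed by genotype after RA, where none of the 35 pluripotency genes was called by edgeR. Of 18 tested, 8 were higher in KO than in WT after RA and none lower, against 0.396% of all genes called in either direction. Among them were the laminin gene Lama1 (log2 1.85), Sox17 (1.70), Foxa2 (1.33) and Col4a1 (0.99). In untreated set 2, 12 of 17 tested were already higher in KO and none lower, with these 4 at 0.70, 1.31, 0.62 and 1.10. The difference in RA response was called for 1 of 18, Lama1. The WT arm was 1 sample.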
